A study of Mus musculus with 13 samples.

Results

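The inflammatory chemokines followed here were 10 genes, Cxcl1, Cxcl2, Cxcl5, Cxcl15, Cxcl14, Ccl2, Ccl7, Ccl6, Ccl11 and Cx3cl1, taken by their symbols from a table of 32544 gene symbols. All 10 had a row, and 4 of them had enough counts to be tested across all genes. The transcripts were counted in whole lung of wild-type male C57BL/6J mice, bought at 7 weeks of age, that breathed 21% oxygen (normoxia, n = 7) or 80% oxygen (hyperoxia, n = 6) for 5 days. Both groups carried the same genotype, and their lungs were perfused with cold buffered saline and flash-frozen before RNA extraction. Each library was made by Quant-seq, in which a transcript is read near its poly(A) tail, so that long transcripts give no more reads than short ones.

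Chemokines are small secreted proteins that direct leukocytes along a gradient to the cells that release them. In mice, the CXC chemokines that carry the amino acid motif ELR before their first cysteines, among them CXCL1, CXCL2, CXCL5 and the lung chemokine CXCL15 (lungkine), attract neutrophils, the first 3 through CXCR2, whereas the CC chemokines CCL2 and CCL7 bind CCR2 on monocytes. The remaining 4 members have other roles: CXCL14 is a homeostatic chemokine of epithelia and stroma, CCL6 is a macrophage product that binds CCR1, CCL11 (eotaxin) binds CCR3 on eosinophils, and CX3CL1 (fractalkine) is a membrane-anchored chemokine of endothelium and epithelium that ADAM10 and ADAM17 release and that binds CX3CR1.

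Of the 10 genes, 7 lie in 2 gene clusters followed here, whose positions are given from the GENCODE annotation of the mouse build GRCm38. The CXC cluster spans 146.6 kb at chr5:90759360-90905938 and holds, in this order, Cxcl5, Ppbp, Pf4, Cxcl3, Cxcl15, Cxcl1 and Cxcl2, all on the plus strand. The CC cluster spans 81.2 kb at chr11:82035571-82116799 and holds Ccl2, Ccl7, Ccl11, Ccl12 and Ccl8, also on the plus strand. The other members are Ccl6 at chr11:83587882-83593087 and Cxcl14 at chr13:56288643-56296551, both on the minus strand, and Cx3cl1 at chr8:94772009-94782427 on the plus strand. These also have chemokine neighbours, with Ccl9 (chr11:83572919-83578636) beside Ccl6, and Cx3cl1 between Ccl22 (chr8:94745590-94751699) and Ccl17 (chr8:94810453-94812036). A gene on the opposite strand overlaps Ccl2 (Gm17268), Cxcl15 (Gm24322) and Ccl6 (E230016K23Rik), and as the sources used here do not state whether the counting used strand, reads of such partners cannot be told apart. Cxcl1, Cxcl2 and Cxcl3 are close paralogs, and how the authors' counting divided reads between them was not tested.

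Promoter sequences from RefSeq (GRCm38.p6) were found for 6 of the 10 members, namely Cxcl1, Cxcl2, Cxcl15, Cxcl14, Ccl6 and Cx3cl1. Each was searched on both strands, over the 250 bases before the RefSeq gene start, for the NF-κB consensus and for the AP-1 motif TGANTCA. These are the motifs of 2 families of transcription factors known to act on inflammatory genes. The sequences of 3 neighbours in the CXC cluster are shown because their transcripts did not move alike, with the NF-κB matches in capitals, written 5′ to 3′ on the plus strand. They stand at chr5:90890995-90891244 for Cxcl1, chr5:90903649-90903898 for Cxcl2 and chr5:90794284-90794533 for Cxcl15.
Cxcl1: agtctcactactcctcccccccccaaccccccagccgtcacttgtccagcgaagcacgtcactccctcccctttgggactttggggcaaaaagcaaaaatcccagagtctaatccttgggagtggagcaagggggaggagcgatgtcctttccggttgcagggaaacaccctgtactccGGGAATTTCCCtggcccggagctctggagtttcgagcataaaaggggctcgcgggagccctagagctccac
Cxcl2: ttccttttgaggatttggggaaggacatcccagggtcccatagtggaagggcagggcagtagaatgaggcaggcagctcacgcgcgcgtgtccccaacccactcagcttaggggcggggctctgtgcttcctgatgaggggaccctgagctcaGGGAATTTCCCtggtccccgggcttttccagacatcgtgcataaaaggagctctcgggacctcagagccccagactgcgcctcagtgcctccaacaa
Cxcl15: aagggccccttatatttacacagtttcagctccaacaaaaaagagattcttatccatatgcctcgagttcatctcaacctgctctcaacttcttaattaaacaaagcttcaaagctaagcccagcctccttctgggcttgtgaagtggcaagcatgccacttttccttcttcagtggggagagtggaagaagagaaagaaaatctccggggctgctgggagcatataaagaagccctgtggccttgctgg
In Cxcl1 and in Cxcl2 the NF-κB consensus matched on both strands, in overlapping positions that start 71 bases before the gene start in Cxcl1 and 97 bases before it in Cxcl2, counted to the RefSeq start, which in both genes lies just inside the GENCODE gene. The pair shared a run of 14 bases that contains these matches, the longest run shared by any of the 15 pairs of the 6 promoters. No match to the NF-κB consensus was found in this window of Cxcl15, Cxcl14, Ccl6 or Cx3cl1, and no match to TGANTCA in any of the 6. For Cx3cl1 most of the window, chr8:94771930-94772179, lies inside the GENCODE gene. Among the 250-base windows of all RefSeq promoters, 3.90% of 32851 held the NF-κB consensus and 6.75% held TGANTCA. A match describes the letters and does not show that a factor binds there.

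The total count was between 1607111 and 3387736 in the normoxic libraries and between 2029006 and 4540288 in the hyperoxic libraries. A count of 3, taken as the floor, was worth between 0.656 and 1.84 CPM (counts scaled to a common library size) per library, and such floors cover counting error only. The library labelled hyperoxia replicate 1 stood apart, with a mean correlation of log2 CPM with the others of 0.779, against 0.886 to 0.919 for the other 12 libraries. It also held the fewest transcripts of Scgb1a1, the main secretory protein of club cells, at 162 CPM, and of Sftpc, the surfactant protein of alveolar type 2 cells, at 32.7 CPM. The libraries fall into 2 sets by the letters in their labels, B to M with 5 normoxic and 3 hyperoxic libraries and O to S with 2 normoxic and 3 hyperoxic libraries, and what the letters stand for is not stated. The labelled tissue was checked by its markers, and those of alveolar type 1 and type 2, club, endothelial and fibroblast cells and of leukocytes were all detected.

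Hyperoxic lung held less Cxcl15 and Cx3cl1 and more Cxcl14 than normoxic lung. CPM values were scaled by the trimmed mean of M values (TMM), and genes were called at an adjusted p under 0.05 with the quasi-likelihood test of edgeR over 12496 genes. At this threshold 1 of the 4 members tested was higher and 2 were lower, where 11.8% of all genes tested were higher and 10.8% were lower. The remaining 6 members were left out by the filter on low counts, which asks for 3.36 CPM in at least 6 libraries, and they are described from their counts below.

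Cxcl15, a neutrophil attractant of the airway and alveolar epithelium, had 2624 CPM in the lowest normoxic library, a median of 2968 CPM and 3795 CPM in the highest. In hyperoxia its level ran from 1059 CPM through a median of 1290 CPM to 1503 CPM. Every hyperoxic library lay below every normoxic library, as in 5.23% of the genes tested. The mean fell from 3051 ± 409 CPM (SD, 7 libraries) to 1279 ± 181 CPM (SD, 6 libraries), a log2 fold change of -1.25 ± 0.15 (SE) with an adjusted p of 2.16e-05 (edgeR quasi-likelihood test). Within the letter sets the log2 fold change was -1.18 in B to M and -1.21 in O to S, and it was -1.23 without hyperoxia replicate 1.
Markers of the epithelial cells that make Cxcl15 were lower in the same libraries. Of 5 alveolar type 2 markers 4 fell, and their summed level ran from 12072 to 22656 CPM in normoxia and from 3094 to 6684 CPM in hyperoxia. Of 3 club cell markers 2 fell, with sums of 14428 to 53058 CPM in normoxia and 182 to 9976 CPM in hyperoxia. None of these 8 markers was at 0 in a whole group. In hyperoxia replicate 1, where Sftpc and Scgb1a1 were lowest, Cxcl15 had 1261 CPM, within the range of the other 5 hyperoxic libraries. Their part in the fall of Cxcl15 was not tested, and in bulk tissue fewer cells of a type and less RNA per cell cannot be told apart.

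Cxcl14 moved the other way. It had 40.4 CPM in the lowest normoxic library, a median of 53.3 CPM and 65.3 CPM in the highest, and 80.9, 122 and 168 CPM in hyperoxia. The groups did not overlap, as in 5.6% of all genes tested on the higher side. The mean rose from 52.1 ± 10.8 CPM (SD, 7 libraries) to 126 ± 29.9 CPM (SD, 6 libraries), a log2 fold change of 1.28 ± 0.18 (SE) with an adjusted p of 0.000135 (edgeR quasi-likelihood test). The highest value came from hyperoxia replicate 1, and without that library the log2 fold change was 1.20. Of the 3 fibroblast markers 1 rose, Pdgfra, and their summed level was 1122 to 1454 CPM in normoxia and 1376 to 1675 CPM in hyperoxia. The part of fibroblasts in the rise of Cxcl14 was not tested.

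Cx3cl1, the membrane-anchored chemokine, ran from 5.57 CPM through a median of 12.9 CPM to 22.8 CPM in normoxia and from 3.75 through 5.12 to 7.18 CPM in hyperoxia. In 3 of 6 hyperoxic libraries the level was below all normoxic libraries, and the groups overlapped through normoxia replicate 6. The mean fell from 13.6 ± 5.55 CPM (SD, 7 libraries) to 5.27 ± 1.32 CPM (SD, 6 libraries), a log2 fold change of -1.35 ± 0.30 (SE) with an adjusted p of 0.00454 (edgeR quasi-likelihood test). The fall was called in the letter set B to M, at -1.60, but in the set O to S the value was -0.55 with an adjusted p of 0.350. In that set, the 2 normoxic libraries held 5.57 and 10.4 CPM. The sheddases of its protein were not called, with a log2 fold change of -0.10 ± 0.17 (SE) and an adjusted p of 0.730 for Adam10 and of -0.06 ± 0.15 (SE) and 0.816 for Adam17. Its receptor Cx3cr1 was at 29.2 ± 8.59 CPM in the normoxic and 21.2 ± 9.48 CPM in the hyperoxic libraries, with an adjusted p of 0.209. Of 4 endothelial markers 1 fell, Tie1, and their summed level was 2051 to 4287 CPM in normoxia and 679 to 4239 CPM in hyperoxia, most of it Pecam1, which was not called.

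Ccl6, a CC chemokine of macrophages, did not pass the threshold across all libraries. Its level was 206, 259 and 355 CPM in the lowest, the median and the highest normoxic library and 222, 366 and 714 CPM in hyperoxia. In 4 of 6 hyperoxic libraries it was above all normoxic libraries, while hyperoxia replicate 3 had the lowest hyperoxic value and replicate 1 the highest. The log2 fold change was 0.57 ± 0.22 (SE) with an adjusted p of 0.0738 (edgeR quasi-likelihood test). It was 0.73 with an adjusted p of 0.0220 without hyperoxia replicate 3, and 0.34 with an adjusted p of 0.119 without hyperoxia replicate 1. With the letter set as a term the adjusted p was 0.0485, so that the call for Ccl6 rested on single libraries and on the model.

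**Figure D1:**
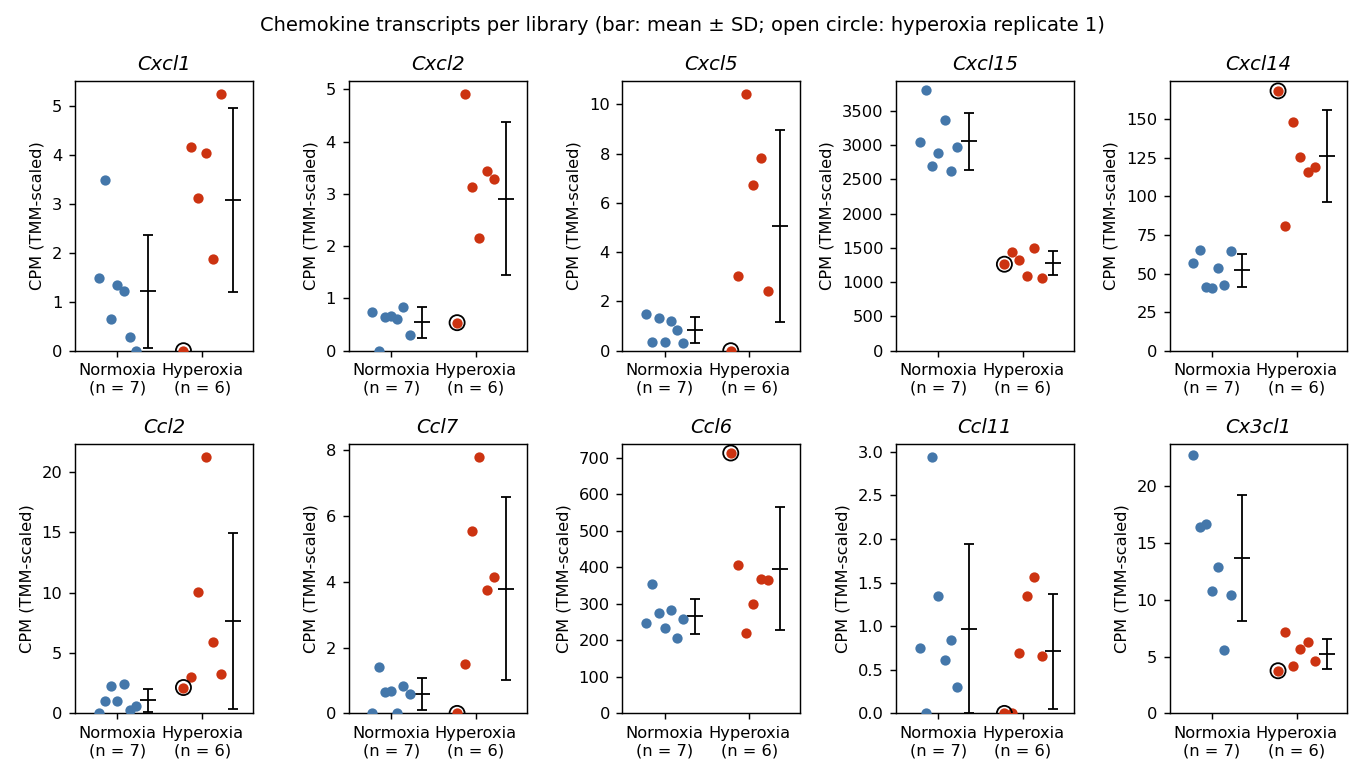
CPM (TMM-scaled, linear axes from 0) of the 10 chemokines in each of the 7 normoxic (blue) and 6 hyperoxic (red) libraries, with the mean ± SD as a bar beside each group and a circle around hyperoxia replicate 1. Cxcl15 and Cxcl14 separate the groups, and in Cxcl2, Cxcl5, Ccl2 and Ccl7 the circled library lies within or below the normoxic range while the other 5 hyperoxic libraries lie above it.

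The 3 remaining neutrophil attractants were scarce in normoxic lung, with 23 counts of Cxcl1, 11 of Cxcl2 and 16 of Cxcl5 in 7 libraries together, against 65, 57 and 99 counts in 6 hyperoxic libraries. These genes and the scarce CC members were compared by an exact permutation test of the mean log2 CPM (prior count of 2) two-sided and over all 1716 arrangements of the labels. The smallest p this test can give is 0.000583, and its p-values were adjusted over 14902 genes with at least 30 counts. A fit of edgeR without the filter, over 19718 genes, was run beside it. Of the 6 members left out by the filter, 4 had an exact p under 0.05 with a higher level in hyperoxia, and the fit without the filter called the same 4 higher. Of all 2406 genes that were left out by the filter and had at least 30 counts, 4.66% had such a p with a higher level and 14.6% with a lower level. The 4 members, Cxcl2, Cxcl5, Ccl2 and Ccl7, had 11, 16, 20 and 13 counts in normoxia. They reached 30 counts only through the hyperoxic libraries, so their number beside this share supports nothing.

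Cxcl2, a neutrophil attractant released early by macrophages, had at most 3 counts in every normoxic library. Its normoxic level ran from 0 through a median of 0.654 CPM to 0.836 CPM, and its hyperoxic level from 0.536 through 3.20 to 4.91 CPM. Every hyperoxic library except replicate 1, which had 1 count, was above all normoxic libraries. The means were 0.546 ± 0.293 CPM (SD, n = 7) and 2.91 ± 1.46 CPM (SD, n = 6), and the log2 level was higher by 1.47 in hyperoxia (exact permutation p = 0.00350, adjusted 0.0227). The fit without the filter gave a log2 fold change of 2.38 with an adjusted p of 0.00536 (edgeR), in a setting that called 7.34% of genes higher.
Cxcl5, an attractant made by lung epithelium, had 1 to 4 counts in each normoxic library and 0, 8, 30, 25, 25 and 11 counts in hyperoxia replicates 1 to 6. Its level was 0.297, 0.836 and 1.49 CPM in the lowest, the median and the highest normoxic library, and 0, 4.88 and 10.4 CPM in hyperoxia. Again the 5 hyperoxic libraries other than replicate 1 were above all normoxic libraries. The log2 level was higher by 1.55 in hyperoxia (exact permutation p = 0.0268, adjusted 0.0968), and the fit without the filter gave 2.65 with an adjusted p of 0.00676 (edgeR). Without hyperoxia replicate 3, 4 or 5 the exact p of Cxcl5 was 0.0606, 0.0543 or 0.0556.
Cxcl1, the closest relative of Cxcl2 in this list, did not pass either test. It had 0, 1.23 and 3.49 CPM in normoxia and 0, 3.58 and 5.25 CPM in hyperoxia as the lowest, median and highest values, and 3 of 6 hyperoxic libraries were above all normoxic libraries. The log2 level difference was 0.94 (exact permutation p = 0.119, adjusted 0.272), and the fit without the filter gave 1.43 with an adjusted p of 0.163 (edgeR). Without hyperoxia replicate 1, which had 0 counts, the difference was 1.38 with an exact permutation p of 0.0114.

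The monocyte attractants Ccl2 and Ccl7, which stand side by side in the CC cluster, were also scarce in normoxia. Ccl2 (also called MCP-1) had 20 counts in 7 normoxic and 154 counts in 6 hyperoxic libraries. Its level ran from 0 through 1.01 to 2.45 CPM in normoxia and from 2.14 through 4.61 to 21.3 CPM in hyperoxia. Except for hyperoxia replicate 1, which lay within the upper normoxic range, the hyperoxic libraries were above all normoxic ones, and replicate 4 was the highest with 79 counts. The log2 level was higher by 2.03 in hyperoxia (exact permutation p = 0.00291, adjusted 0.0201), and the fit without the filter gave 2.91 with an adjusted p of 0.00331 (edgeR).
Ccl7 (MCP-3), which also binds CCR2, had 13 counts in normoxia and 80 in hyperoxia. Its level was 0, 0.654 and 1.40 CPM in the lowest, the median and the highest normoxic library and 0, 3.95 and 7.81 CPM in hyperoxia. Replicate 1 had 0 counts, and the other 5 hyperoxic libraries were above all normoxic ones. The log2 level was higher by 1.55 (exact permutation p = 0.0221, adjusted 0.0847), and the fit without the filter gave 2.59 with an adjusted p of 0.0114 (edgeR).
Ccl11, the eosinophil attractant next to Ccl7, had 20 counts in normoxia and 15 in hyperoxia. Its level was 0 to 2.94 CPM in normoxia and 0 to 1.56 CPM in hyperoxia, with no hyperoxic library outside the normoxic range. The log2 level difference was -0.22 with an exact permutation p of 0.617. Ccl11 thus had similar low counts in both groups, and its difference did not pass the test.

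In the 8 libraries of the letter set B to M alone, the exact permutation p of the scarce members was no longer under 0.05, at 0.0893 for Cxcl2, 0.321 for Cxcl5, 0.0714 for Ccl2 and 0.286 for Ccl7. This set holds hyperoxia replicate 1. Their log2 level differences there were 1.34, 0.98, 1.44 and 0.92. In the set O to S, with 3 hyperoxic and 2 normoxic libraries, Cxcl2 had 2.15 to 3.44 CPM in hyperoxia against 0.297 to 0.836 CPM in normoxia. The values were 2.41 to 7.81 against 0.297 to 0.836 CPM for Cxcl5, 3.28 to 21.3 against 0.279 to 0.595 CPM for Ccl2 and 3.75 to 7.81 against 0.595 to 0.836 CPM for Ccl7. The exact test was not run in this small set, and the share of all genes whose groups separate there was not counted. Without hyperoxia replicate 1 the log2 level differences of Cxcl2, Cxcl5, Ccl2 and Ccl7 were 1.75, 2.08, 2.27 and 2.02.

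The neutrophil-attracting and the monocyte-attracting members were then set side by side. The sum of Cxcl1, Cxcl2 and Cxcl5 ran from 0.595 through a median of 2.62 to 3.84 CPM in normoxia and from 0.536 through 12.5 to 16.7 CPM in hyperoxia. Its mean was 2.59 ± 1.12 CPM (SD, n = 7) in normoxia, against 11.0 ± 5.50 CPM (SD, n = 6) in hyperoxia, a ratio of 4.26. The sum of Ccl2 and Ccl7 ran from 0 through 1.68 to 2.94 CPM in normoxia and from 2.14 through 8.56 to 29.1 CPM in hyperoxia. Its mean was 1.69 ± 1.01 CPM (SD, n = 7) and 11.4 ± 9.82 CPM (SD, n = 6), a ratio of 6.76.
In both sums 5 of 6 hyperoxic libraries were above all normoxic libraries, and replicate 1 was the exception. The log2 ratio of the monocyte-attracting sum to this neutrophil-attracting sum, with 1 CPM added to each, was -0.46 ± 0.86 (SD, n = 7) in normoxia and -0.01 ± 0.92 (SD, n = 6) in hyperoxia. Only 2 of 6 hyperoxic libraries were above all normoxic ones in this ratio, replicates 1 and 4, and the difference of 0.44 was within the spread of either group.
When Cxcl15 was counted as a neutrophil attractant, the same log2 ratio moved from -10.3 ± 0.66 (SD, n = 7) to -7.06 ± 1.23 (SD, n = 6), with 6 of 6 hyperoxic libraries above all normoxic ones. Its 60652 counts in normoxia and 23656 in hyperoxia made up nearly all of that sum, so that the balance of the classes by this ratio depended on Cxcl15. The members were chosen with results known, and no test was made of either ratio.

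**Figure D2:**
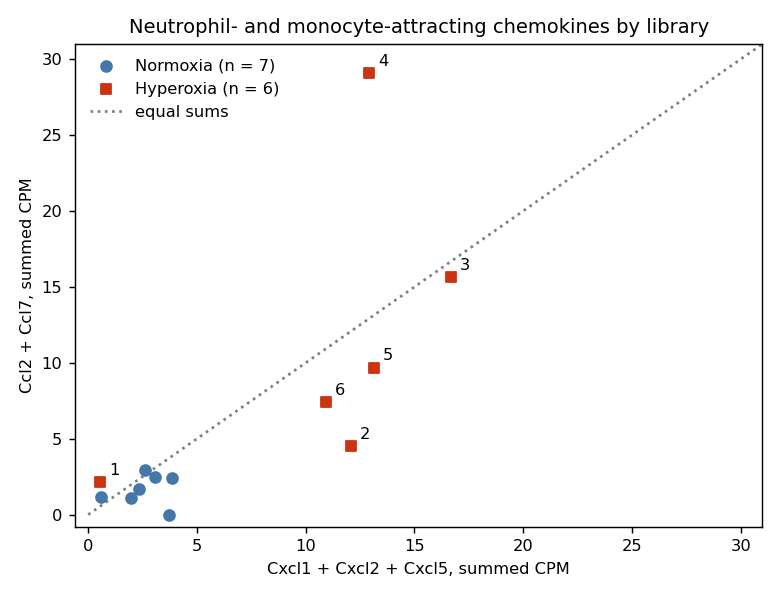
Summed CPM of Cxcl1, Cxcl2 and Cxcl5 (horizontal axis) against summed CPM of Ccl2 and Ccl7 (vertical axis) in each normoxic (blue circles) and hyperoxic (red squares, numbered by replicate) library, with a dotted line of equal sums. Hyperoxia replicates 2 to 6 lie at 10.9 to 16.7 CPM on the horizontal axis, right of all normoxic libraries at up to 3.84 CPM, and replicate 4 alone lies far above the line, at 29.1 CPM on the vertical axis.

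In the CXC cluster the signs of the differences were mixed. There Cxcl5 and Cxcl2, at the ends, had higher log2 levels in hyperoxia by 1.55 and 1.47, whereas Cxcl15, 35.2 kb from the first gene, was lower by 1.26. Ppbp, the platelet basic protein 9.2 kb from the start of Cxcl5, fell with a log2 fold change of -1.20 ± 0.30 (SE) and an adjusted p of 0.00840 (edgeR). Cxcl3, another ligand of CXCR2, had 27 counts in normoxia and 17 in hyperoxia, with a log2 level difference of -0.38 (exact permutation p = 0.341). In the CC cluster, Ccl12 and Ccl8, which were named here for their place, had differences of 0.80 (exact permutation p = 0.156) and 0.93 (exact permutation p = 0.208), of the same sign as Ccl2 and Ccl7, and only Ccl11 was below 0, without passing the test. Of the neighbours of Cx3cl1, Ccl22 fell, with a log2 fold change of -1.48 ± 0.43 (SE) and an adjusted p of 0.0199 (edgeR), while Ccl17 had 0.07 ± 0.52 (SE) and an adjusted p of 0.940. Ccl9, beside Ccl6, had 0.29 ± 0.18 (SE) and an adjusted p of 0.281.

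**Figure D3:**
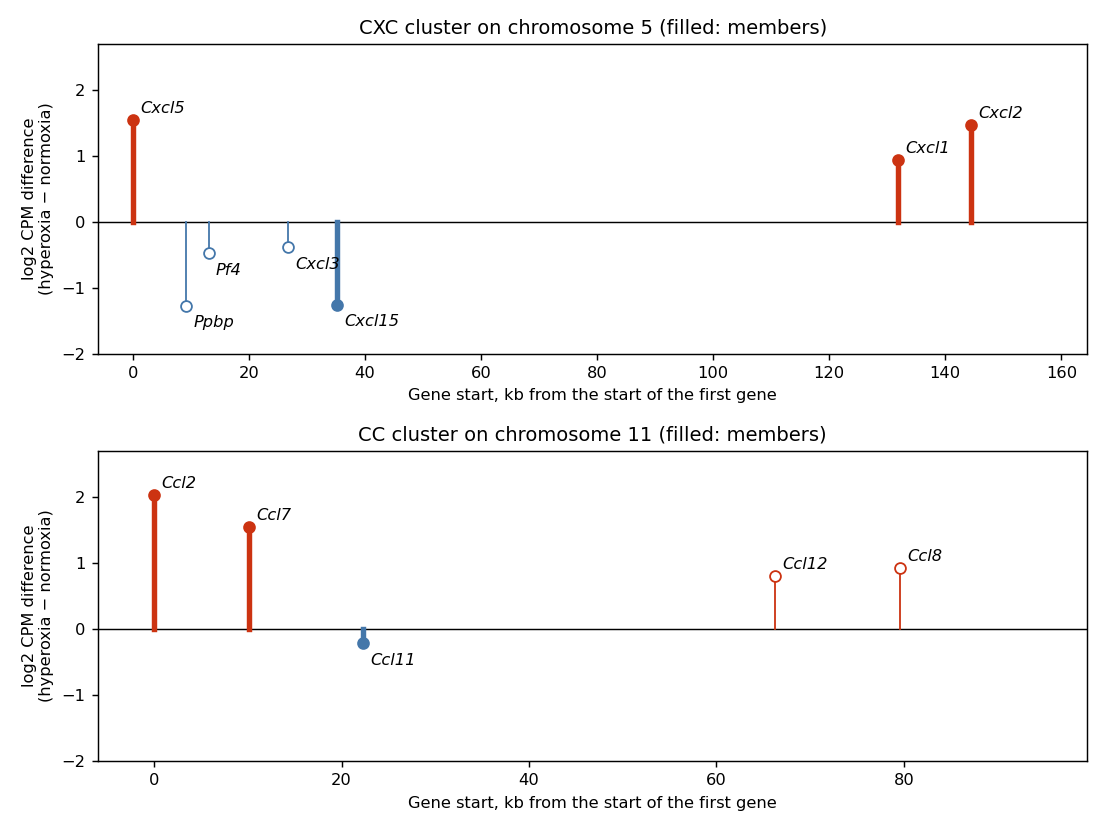
Difference in mean log2 CPM between hyperoxia and normoxia (vertical axis) for each chemokine of the CXC and CC clusters, against the distance of its start from that of the first gene in kb (horizontal axis), with filled points for members and red for positive and blue for negative values. Cxcl5, Cxcl1 and Cxcl2 lie above 0 while the 4 genes between Cxcl5 and Cxcl1 lie below 0, and of the 3 genes of this cluster in the filtered edgeR fit (Ppbp, Pf4 and Cxcl15) Ppbp and Cxcl15 were called.

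Among 27 other chemokines, 15 were tested, of which 2 rose and 3 fell, beside 11.8% and 10.8% of all genes, with a median log2 fold change of -0.08 against -0.03 for all genes tested. Cxcl16, a membrane-anchored chemokine that binds CXCR6 and, like CX3CL1, is released by ADAM10, rose from 98.1 ± 9.92 CPM (SD, 7 libraries) to 202 ± 50.6 CPM (SD, 6 libraries), a log2 fold change of 1.04. Ccl5, a chemokine made by T cells and natural killer cells, fell from a mean of 18.0 ± 5.43 CPM to one of 3.84 ± 2.77 CPM, and its log2 fold change was -2.17 with an adjusted p of 0.00156 (edgeR). Without hyperoxia replicate 1 the number that rose was 4, and without replicate 4 it was 1. The other 3 calls were Cxcl13, which was higher, and Ppbp and Ccl22, which were lower. The membrane-anchored pair, Cx3cl1 and Cxcl16, thus had log2 fold changes of opposite sign.

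Of 23 chemokine receptor genes 14 were tested, of which 1 rose and 8 fell, and the median log2 fold change was -0.84, where 11.8% of all genes tested rose and 10.8% fell. Most of these receptors are carried by leukocytes, and Ptprc, the pan-leukocyte gene that encodes CD45, fell from 217 ± 72.3 to 110 ± 34.5 CPM, with a log2 fold change of -0.98 ± 0.23 (SE) and an adjusted p of 0.00691 (edgeR). Its part in the values of the receptors was not tested. Without normoxia replicate 3, 5 or 7 the number that fell was 5, and without hyperoxia replicate 1 the number that rose was 2. Cxcr2, the receptor of CXCL1, CXCL2 and CXCL5, was at 61.4 ± 16.8 CPM (SD) in the 7 normoxic and at 61.9 ± 24.9 CPM (SD) in the 6 hyperoxic libraries, with a log2 fold change of 0.02 ± 0.26 (SE) and an adjusted p of 0.976 (edgeR). Ccr2, the receptor of CCL2 and CCL7, fell from 65.3 ± 16.5 to 36.2 ± 9.80 CPM, with a log2 fold change of -0.85 ± 0.21 (SE) and an adjusted p of 0.00806 (edgeR). In Ccr2 the hyperoxic libraries were all below the normoxic ones, as in 5.23% of the genes tested, with 47.3 CPM as the highest hyperoxic and 50.4 CPM as the lowest normoxic value. The receptors Cxcr4, Ackr4, Ccr9 and Ccrl2 separated in the same way.
Ccr1, the receptor of CCL6, was at 6.16 ± 2.47 CPM in the normoxic and 15.1 ± 15.0 CPM in the hyperoxic libraries, with an adjusted p of 0.118. Ccr3, the receptor of CCL11, had 10 counts in normoxia and 2 in hyperoxia and was not tested. The only receptor that rose was Ackr3, a scavenger of CXCL12, from 39.6 ± 4.75 CPM (SD, 7 libraries) to 203 ± 63.4 CPM (SD, 6 libraries), a log2 fold change of 2.36. Cxcr4, the signalling receptor of CXCL12, and Ackr4, a scavenger of CCL19 and CCL21, fell with log2 fold changes of -2.29 and -2.24. The other receptors that fell were Ccrl2, Ccr9, Xcr1, Cxcr5 and Ccr7.

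**Figure D4:**
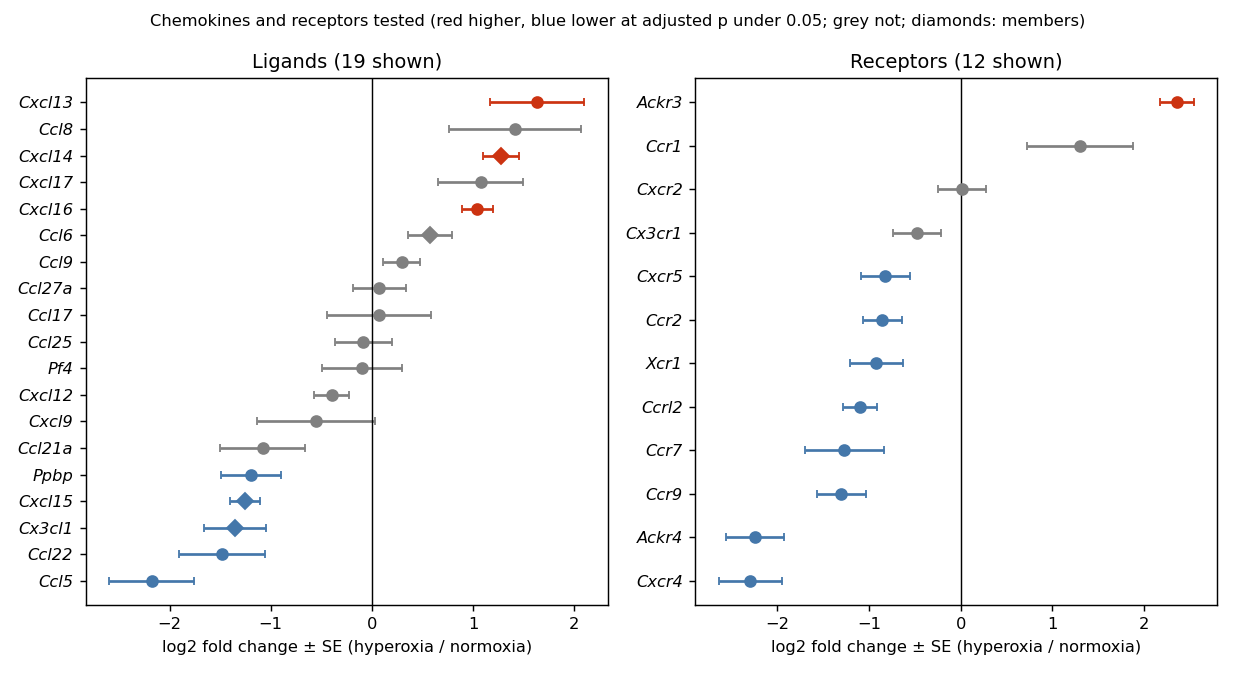
Log2 fold change ± SE (horizontal axis, hyperoxia over normoxia, edgeR) of the 19 chemokines that were tested and of the 12 tested chemokine receptors that the text names, with genes higher at an adjusted p under 0.05 in red, lower in blue and others in grey, and the 4 tested members as diamonds. Ackr3 has the largest positive value, 2.36, and 8 of the receptors are blue.

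A list of 30 genes held inducers of chemokines, genes of the NF-κB response and the sheddases Adam10 and Adam17. Of these, 23 were tested, of which 2 rose and 2 fell, close to the 11.8% and 10.8% of all genes. Their median log2 fold change was 0.17, and 5 rose without hyperoxia replicate 1. Selp, the selectin of platelets and endothelium on which leukocytes roll, rose from 5.51 ± 1.06 CPM (SD, 7 libraries) to 20.4 ± 6.81 CPM (SD, 6 libraries), a log2 fold change of 1.88, and Nfkbia, the inhibitor that NF-κB induces, rose by 0.61 on the log2 scale with an adjusted p of 0.0220 (edgeR). Nfkb1 and the epithelial cytokine Il33 fell, with log2 fold changes of -0.85 and -0.86. Il17a and Csf3 had no count in any library.

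Markers of the leukocytes that these chemokines attract were counted next, where over all genes tested 11.8% were higher and 10.8% lower. Of 15 neutrophil markers 9 were tested, of which Mmp8 rose and Hdc and Mxd1 fell (4 fell without hyperoxia replicate 4), and their summed level was 174 to 275 CPM in normoxia and 70.8 to 357 CPM in hyperoxia. Ly6g, the gene that defines mouse neutrophils, had 2 counts in normoxia and 3 in hyperoxia.
Of 20 markers of monocytes and recruited macrophages 4 rose and 5 fell, with a median log2 fold change of -0.18. Gpnmb, Trem2, Spp1 and F13a1, found in lipid-handling or tissue-repair macrophages, rose, the first from 35.5 ± 9.13 CPM (SD, 7 libraries) to 109 ± 46.9 CPM (SD, 6 libraries). Ms4a4c, Ly6c2, Plac8, Ccr2 and Lyz2 fell, Ms4a4c with a log2 fold change of -2.50 and Lyz2, which alveolar type 2 cells also make, with -2.27. The summed level of the 20 markers was 2976 to 5130 CPM in normoxia and 1154 to 2348 CPM in hyperoxia, and most of the fall in this sum came from Lyz2. Without Lyz2 the other 19 markers summed to 1012 to 1432 CPM in normoxia and to 816 to 1896 CPM in hyperoxia, and the groups overlapped.
Among 13 alveolar macrophage markers, 1 rose, Mrc1 (4 without hyperoxia replicate 1), and 6 fell, of which Ear1, Abcg1 and Ear2 had log2 fold changes of -3.03, -1.12 and -2.04. The sum was 542 to 676 CPM in normoxia and 249 to 908 CPM in hyperoxia. None of 6 eosinophil markers passed the filter, and Epx and Prg2 had no count in any library. The part of these cell types in the values of the chemokines was not tested.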

How the data were processed

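Lung RNA from 7 normoxic and 6 hyperoxic samples was sequenced with Quant-seq (Lexogen), 1 library for each sample. Reads were pseudoaligned by the authors with kallisto (BioJupies). They deposited unnormalized counts for each gene symbol and, as a second deposited table, the log10 of CPM plus 1. Per the submitters' processing notes the build was mm10. The annotation and the use of strand are not given in the sources used here. Groups and replicate numbers came from the labels, and 0 columns were left unmapped. The labels do not say that samples were separate animals, so p-values measure the spread between these samples.

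Counts were tested with edgeR 4.0.16 (glmQLFit, glmQLFTest, TMM, filterByExpr, Benjamini-Hochberg) in R 4.3.3, with all 13 libraries and no covariate, and SEs were derived from the F statistic. The study's tool, limma, was an alternative (3.58.1), as was DESeq2 1.42.0. On simulated counts over 12345 genes the edgeR test recovered 57% of 2-fold and 100% of 4-fold changes, with 3.09% of calls false. The simulation gave every gene the same dispersion, changed only genes of middle level and held no outlying library. Its rates need not hold for these libraries or for the scarce members. Libraries of the same group differed beyond the sampling noise in all 36 pairs. The members and lists were chosen with earlier results of these data known. The genes named were all 10 members, the 3 genes of each list with the smallest adjusted p among those called, the receptors of the members, and Adam10 and Adam17; others were named after their values were seen. Alternatives were another scaling, no filter or at least 10 counts in every library, the letter set as a term or alone, the replicate number as a block, and leaving out each library in turn. Added after the data were seen were the class ratio without Cxcl15, the monocyte marker sum without Lyz2 and the alternatives of the exact test. Values of 1 receptor gene are not reported here.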

Additional observations from a re-analysis of the deposited data

Results flagged for a closer look

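Of 86 sets of values examined, 7 held a library far from the others of its group, where about 4.3 would by chance at 1 in 20. No chemokine member was among them. The value given is the gap of that library to its nearest neighbour as a share of the range of its group. In 4 of the 7 the library was hyperoxia replicate 1, which was lowest in the mean correlation with the other libraries (0.763), in the summed alveolar macrophage markers (0.719), in Abcg1 (0.658) and in Mxd1 (0.642). Hyperoxia replicate 2 was lowest in Ccr2 (0.627), normoxia replicate 5 had the lowest total count (0.612), and among the hyperoxic libraries Ccr3 was detected in replicate 5 only, with 2 counts, so that the gap made up the whole range (1).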

How the results depend on the processing

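Cxcl15 and Cxcl14 kept their direction and call under all 23 alternatives, with log2 fold changes of -1.33 to -1.17 and of 1.16 to 1.42. Without the filter 5 members were called higher, Cxcl2, Cxcl5, Cxcl14, Ccl2 and Ccl7, with the letter set as a term 2, Cxcl14 and Ccl6, and in the set O to S alone 7 of 9 tested, where 1438 of 13109 genes were higher. Of these 7, Cxcl1, Cxcl2, Cxcl5, Ccl2 and Ccl7 passed the filter of that set only through the hyperoxic libraries, so that their calls there support nothing, and the other two were Cxcl14 and Ccl6. One member was called lower, Cxcl15, both in that set and with at least 10 counts in every library, the latter because Cx3cl1 was no longer tested. Leaving out each library gave 1 to 2 members higher and 2 to 2 lower, with 2 higher without hyperoxia replicate 3. The difference in the log2 class ratio was 3.20 with Cxcl15, 2.82 to 3.51 with each library left out, and 0.44 without Cxcl15. The log2 level difference of Ccl11 ran from -0.40 to 0.0052 with each library left out and was above 0 without normoxia replicate 3. Same-numbered libraries did not deviate together (correlations of -0.325 to 0.272, 1 of 6 over 0.1, and 1 of 6 correlated best with its own number), and with the replicate number as a block 1 member was higher and 2 lower, with 718 genes higher and 626 lower instead of 1473 and 1346. Among all calls 52.3% were higher, against 38.8% with limma on the deposited log10 CPM, 42.7% when scaled by library size alone and 60.6% in the set B to M. The median over all genes tested was -0.03 on the log2 scale, and scaling by library size alone moved it to -0.10 and limma on the deposited values to -0.16. The number of alveolar macrophage markers called higher was 2 with DESeq2. The cause of these shifts was not tested. Depth limits the precision of the scarce chemokines, since no normoxic library held more than 10 counts of Cxcl1, Cxcl2, Cxcl5, Ccl2, Ccl7 or Ccl11.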

Other observations

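Of the genes of the other lists, 19 were left out by the filter and had at least 30 counts, and 3 of them had a higher and 4 a lower level in hyperoxia at an exact p under 0.05, beside 4.66% and 14.6% of all such genes. The 3 higher genes had fewer than 30 counts in normoxia, and the 4 lower genes had fewer than 30 in hyperoxia. Each reached 30 counts only through the group where it was high, so these numbers support nothing. Il6, a cytokine induced through NF-κB, had 6 counts in 7 normoxic and 68 in 6 hyperoxic libraries, and 5 of 6 hyperoxic libraries lay above all normoxic ones (exact permutation p = 0.00291, adjusted 0.0201). Ccl20, an epithelial ligand of CCR6, had 15 and 100 counts (exact permutation p = 0.0210, adjusted 0.0814). Cxcl10, an interferon-induced ligand of CXCR3, had 24 and 65 counts (exact permutation p = 0.0128, adjusted 0.0573).

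The 4 lower genes were receptors, a ligand and a cytokine. Ccr6, the receptor of CCL20, had 30 counts in normoxia and 1 in hyperoxia (exact permutation p = 0.000583, the smallest this test can give, adjusted 0.00705). Cxcr6, the receptor of CXCL16, had 103 and 26 counts (exact permutation p = 0.0105, adjusted 0.0496). Xcl1, the ligand of XCR1, had 28 and 4 counts (exact permutation p = 0.0204, adjusted 0.0799), and the cytokine Il1a had 29 and 7 counts (exact permutation p = 0.0326, adjusted 0.112).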
